A study of Mus musculus with 10 samples.

Results

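The genes described here encode 10 proteins of elastic fibres and of the fibrillin microfibrils around them. They were taken by symbol from a table of 14623 genes, and all 10 were present: Fbn1, Eln, Mfap4, Mfap5, Fbln1, Fbln2, Fbln5, Efemp1, Ltbp4 and Emilin1. The counts came from the stromal vascular fraction (SVF) of inguinal white adipose tissue (iWAT), the cells that remain after collagenase digestion of fat and loss of the floating adipocytes. To ask what ciliary dysfunction does to these cells, the SVF of a lean Bbs8-/- mouse (Bbs8 KO) and of a Bbs8+/+ mouse (Bbs8 WT), both aged 7 weeks, was profiled by Seq-Well S3, a microwell method that tags the 3′ end of each captured transcript with a unique molecular identifier (UMI). BBS8 is a subunit of the BBSome, which moves membrane proteins in and out of the primary cilium, and Bbs8-/- lacks it in all cells of the body. The series text names 1 mouse per genotype, so no difference between the genotypes had a replicate check and no p-value is given.

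Elastic fibres give tissues their recoil. Fibrillin-1 assembles into microfibrils, tropoelastin is laid down on them and crosslinked by lysyl oxidases, and fibulins, EMILIN-1 and LTBP-4 link the elastin core to the microfibrils and to the cell surface. In fat, these proteins are made mainly by the Pdgfra-expressing stromal cells, which include the adipocyte precursor cells, and microfibrils also hold latent TGF-beta and BMPs. The adipocyte precursors are divided into stem-cell-like P1 cells (marked by Dpp4 and Pi16), P2 cells that are committed to the adipocyte lineage (Col15a1, Icam1) and regulatory P3 cells (F3, Gdf10).

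The table held 10914 cells in 10 barcode sets, 5 per genotype, whose codes could not be tied to single labelled samples. The sets are technical parts of a mouse and not replicates, and the numbers in their codes (KO5, KO6, WT3 and WT4) were not explained. Bbs8 KO gave 8985 cells with 3144195 UMIs and a median of 251 UMIs per cell, and Bbs8 WT 1929 cells with 715989 UMIs and a median of 278. The targeted gene, listed as Ttc8, was at 0 UMIs in the KO mouse, a count that leaves room for up to 0.954 CPM. CPM are UMI counts scaled to the usual common total, with all UMIs of the cells in question (a genotype, a cell class within it, or a set) as the denominator. In Bbs8 WT Ttc8 had 5 UMIs, all in 1 of 5 sets. At this depth the gene checks the labels weakly. In all, 36 barcodes occurred in more than 1 set (103 cells). Clusters rebuilt without the 10 genes among the clustering features gave P1-like (406 Bbs8 KO and 170 Bbs8 WT cells), P2-like (1487 and 517) and P3-like (143 and 90) stromal cells, which together are called all stromal cells. Stromal cells made up 22.7% of the cells in the KO mouse and 40.3% in the WT mouse, and 24.7% and 13.2% of cells lay in clusters without leading markers, which stayed unnamed.

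On GRCm38 the gene bodies, with their exons and introns, span chr2:125300594-125507993, minus strand (Fbn1), chr5:134702593-134747323, minus strand (Eln), chr11:61485431-61488900, plus strand (Mfap4), chr6:122505845-122529290, plus strand (Mfap5), chr15:85205949-85286535, plus strand (Fbln1), chr6:91212455-91272540, plus strand (Fbln2), chr12:101746565-101819055, minus strand (Fbln5), chr11:28853204-28926743, plus strand (Efemp1), chr7:27305136-27337692, minus strand (Ltbp4) and chr5:30913402-30921277, plus strand (Emilin1). Fbn1 overlaps Gm9913, listed with 0 UMIs, and Mfap4 overlaps Mapk7, listed with 49 UMIs, each on the opposite strand. Promoter windows of RefSeq, 250 bases before to 50 after a start, were at hand for 7 of the 10 genes (GRCm38.p6), all but Eln, Mfap4 and Mfap5. Those of Fbn1 and Efemp1 are shown because these members had the most similar pattern over cell classes, and those of Fbln2 and Emilin1 because their levels in all stromal cells were lower in every Bbs8 KO set than in every Bbs8 WT set. Capitals mark GGGCGG or its reverse complement, the GC box, searched on both strands. The windows span chr2:125506389-125506688, minus strand (Fbn1), chr11:28852955-28853254, plus strand (Efemp1), chr6:91212514-91212813, plus strand (Fbln2) and chr5:30913536-30913835, plus strand (Emilin1), and read 5′ to 3′ on the strand of the gene:
Fbn1: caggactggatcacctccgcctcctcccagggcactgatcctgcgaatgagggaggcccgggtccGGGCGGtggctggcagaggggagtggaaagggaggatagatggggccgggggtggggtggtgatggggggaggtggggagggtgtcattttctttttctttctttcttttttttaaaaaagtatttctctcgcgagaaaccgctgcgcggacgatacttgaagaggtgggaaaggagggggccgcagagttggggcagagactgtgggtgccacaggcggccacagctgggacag
Efemp1: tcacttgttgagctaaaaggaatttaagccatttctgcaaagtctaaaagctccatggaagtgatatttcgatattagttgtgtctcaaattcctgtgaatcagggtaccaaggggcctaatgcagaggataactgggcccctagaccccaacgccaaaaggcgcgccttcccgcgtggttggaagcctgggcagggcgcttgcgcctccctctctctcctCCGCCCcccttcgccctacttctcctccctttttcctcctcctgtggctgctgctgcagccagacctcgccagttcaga
Fbln2: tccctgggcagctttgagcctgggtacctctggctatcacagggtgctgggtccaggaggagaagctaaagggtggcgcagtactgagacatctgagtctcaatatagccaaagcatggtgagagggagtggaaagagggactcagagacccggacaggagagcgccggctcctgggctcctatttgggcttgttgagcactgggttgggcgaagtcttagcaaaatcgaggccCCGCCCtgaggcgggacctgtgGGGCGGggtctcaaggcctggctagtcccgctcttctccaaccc
Emilin1: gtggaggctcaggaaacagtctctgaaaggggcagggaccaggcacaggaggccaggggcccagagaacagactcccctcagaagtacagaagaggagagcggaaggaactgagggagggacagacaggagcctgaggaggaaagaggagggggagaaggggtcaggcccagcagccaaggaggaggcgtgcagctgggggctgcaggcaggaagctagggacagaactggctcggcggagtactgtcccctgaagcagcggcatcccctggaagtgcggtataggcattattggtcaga
The GC box occurred 1 time in the Fbn1 window, 1 time in that of Efemp1, 2 times in that of Fbln2 and 0 times in that of Emilin1, and 35.7% of 32851 promoter windows held it at least once. The letters TATAAA were in none of the 4, and in 13.6% of all windows. A match of letters is a description and not a binding site.

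The first question was which cells of the SVF held these transcripts. They were mainly stromal: 78.5% of 3414 Fbn1 UMIs, 75.5% of 1381 Mfap5 UMIs and 78.8% of 1182 Efemp1 UMIs came from stromal cells. The lowest stromal shares, with both mice pooled, were those of Fbln5 (52.0% of 371) and Ltbp4 (59.6% of 443). The Fbln5 share was low in Bbs8 KO (107 of 268 UMIs) and not in Bbs8 WT (86 of 103). For Ltbp4 it was 172 of 313 and 92 of 130 UMIs, and for Eln 307 of 449 and 119 of 168. Mfap4 had only 34 UMIs in the whole table and did not reach the minimum of 50 UMIs over both mice that a gene needed to be counted in a comparison. Ratios are log2 of CPM plus 5, and their intervals are 95% intervals of the plain ratio that cover counting error only.

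T cell-like and B cell-like cells, which should lack these genes, served as the background of free RNA. Of 9 members counted, 9 were at least 2 higher (log2) in stromal than in lymphocyte-like cells in both mice, against 8.73% of 6503 genes, and the median difference over the members was 4.10 in the KO mouse and 3.55 in the WT mouse. Fbn1, the fibrillin that forms the backbone of microfibrils, read 2322 CPM (2222 to 2425) in stromal and 72.6 CPM (55.9 to 92.7) in lymphocyte-like cells of Bbs8 KO. In Bbs8 WT it read 1984 CPM (1835 to 2141) and 134 CPM (61.4 to 255). The lymphocyte-like background was higher in Bbs8 WT for the summed pan-stromal markers too, at 4774 CPM (2891 to 7908 over sets) against 1656 CPM (1005 to 1941 over sets) in Bbs8 KO, and its part in the differences below was not tested.

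Cells of the vessel wall shared part of the set. Only 4 of 9 members were at least 2 higher in stromal than in endothelial-like cells in both mice (6.45% of all genes counted), namely Fbn1, Mfap5, Fbln1 and Efemp1, and 3 of 9 against pericyte-like cells (2.39%), namely Fbn1, Mfap5 and Efemp1. Fbln5, whose protein carries tropoelastin onto microfibrils and binds integrins, read 335 CPM (249.8 to 441) in endothelial-like and 332 CPM (244 to 441) in pericyte-like cells of Bbs8 KO, above its stromal level of 123 CPM (101 to 149). In Bbs8 WT these levels were 169 CPM (67.8 to 347), 161 CPM (52.2 to 375) and 258 CPM (206 to 319), with intervals that overlapped. Ltbp4, which binds latent TGF-beta and fibulin-5, read 322 CPM (238 to 426) in endothelial-like cells of Bbs8 KO and 265 CPM (132 to 474) in those of Bbs8 WT, and its difference from stromal cells was -0.69 in the KO mouse and 0.06 in the WT mouse. In the KO mouse the intervals of Fbln5 and Ltbp4 in endothelial-like cells thus lay above those in stromal cells, and in the WT mouse they overlapped.

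Eln, which encodes tropoelastin, was at 578 CPM (370.2 to 859.8) in endothelial-like cells of Bbs8 WT and at 98.7 CPM (55.2 to 163) in those of Bbs8 KO. The Bbs8 KO sets spanned 0 to 304 CPM and the Bbs8 WT sets 307 to 1255 CPM, without overlap, but only 15 and 24 UMIs lay behind them. Pericyte markers summed to 835 CPM in endothelial-like cells of Bbs8 KO and to 1902 CPM in those of Bbs8 WT, and their part in the Eln difference was not tested. Fbn1 went the other way in pericyte-like cells, with 536 CPM (423 to 671) in the KO mouse and 96.5 CPM (19.9 to 282) in the WT mouse, where 3 UMIs were counted. Pan-stromal markers in the same cells summed to 11141 and 14886 CPM. In the map of levels by cell class, the stromal columns of Fbn1, Mfap5 and Efemp1 are the brightest in both mice, and each of the other genes reaches the lowest stromal level in a vessel column of at least 1 mouse, Mfap4 and Emilin1 on 4 UMIs or fewer.

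**Figure D1:**
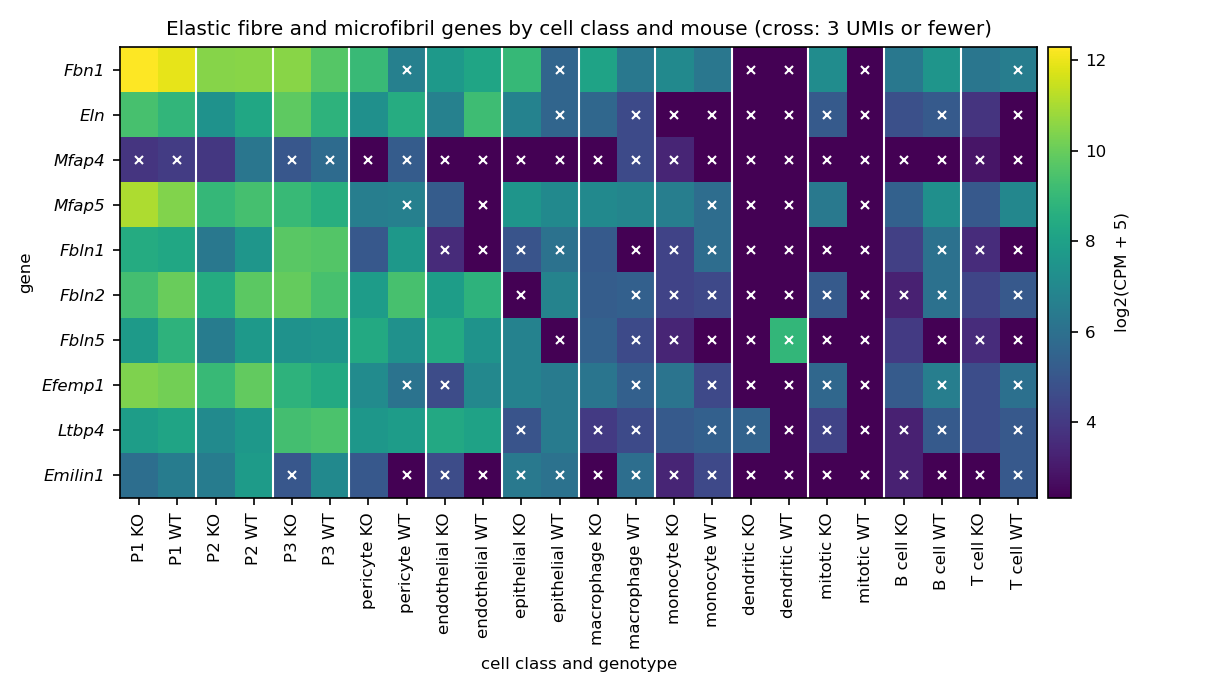
Level of each of the 10 genes as log2(CPM + 5) in 12 named cell classes of the Bbs8 KO and the Bbs8 WT mouse; a white cross marks 3 UMIs or fewer. The stromal columns (P1, P2 and P3) are the brightest for Fbn1, Mfap5 and Efemp1 in both mice, while each of the other genes reaches the lowest stromal level in endothelial-like or pericyte-like cells of at least 1 mouse.

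How many cells held a transcript of the set was asked after every cell had been thinned to 200 UMIs, since shares depend on depth. At this depth 51.0% (48.6 to 53.4) of Bbs8 KO and 61.9% (58.1 to 65.6) of Bbs8 WT stromal cells had a UMI of at least 1 of the 10 genes (Clopper-Pearson 95% intervals), against 3.94% (3.10 to 4.93) and 8.72% (4.96 to 14.0) of lymphocyte-like cells. Unthinned, the stromal shares were 64.6% and 75.5%, and the lymphocyte-like shares 5.67% and 9.09%. Median depths were 306 and 318 UMIs in stromal cells and 253 and 234 in lymphocyte-like cells, and thinning left out 393 Bbs8 KO and 103 Bbs8 WT stromal cells.

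The stromal subtypes differed. In P1-like cells 78.2% (73.6 to 82.4) of Bbs8 KO and 74.7% (66.9 to 81.4) of Bbs8 WT cells held a member, in P2-like cells 41.3% (38.5 to 44.2) and 58.7% (54.0 to 63.4), and in P3-like cells 64.2% (55.1 to 72.7) and 55.4% (44.1 to 66.3). The P2-like share was lower in Bbs8 KO with intervals apart, and those of P1-like and P3-like cells overlapped. These intervals treat single cells as independent and cover counting error only, not differences between sets or mice. Pan-stromal markers in P2-like cells summed to 60008 CPM (53304 to 68508 over sets) in the KO mouse. In the WT mouse the sum was 84827 CPM (77597.5 to 93672 over sets), and the part of this difference in the P2-like share was not tested. Cells with 2 or more different members made up 44.4% and 38.7% of P1-like cells and 11.0% and 22.9% of P2-like cells, and no thinned stromal cell held more than 5. By gene, Fbn1 was in 28.8% and 27.4% of thinned stromal cells, Fbln2 in 8.16% and 13.4%, and Efemp1 in 10.8% and 16.3%.

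**Figure D2:**
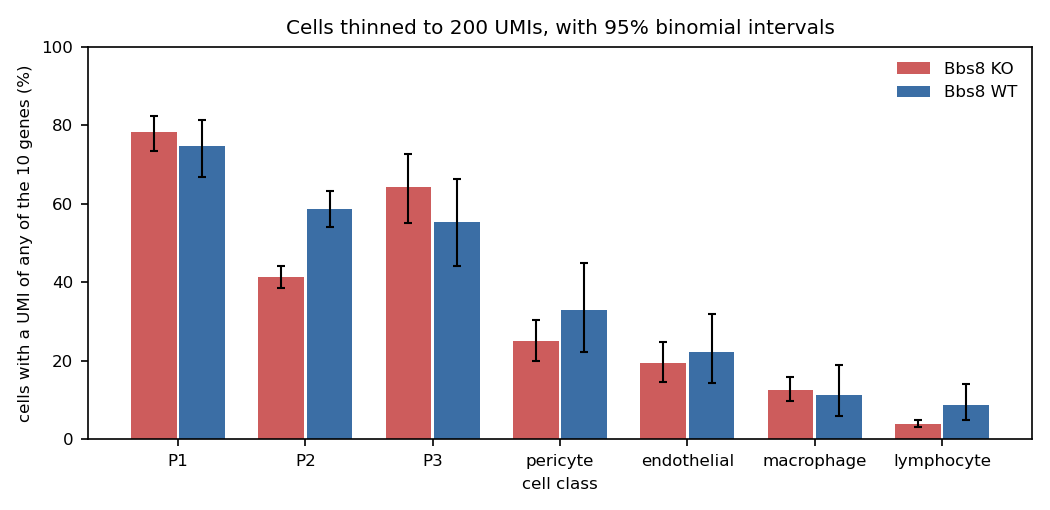
Share of cells, thinned to 200 UMIs, with a UMI of any of the 10 genes, by cell class and genotype, with 95% binomial intervals that cover counting error only. The P1 bars are the highest in both mice (78.2% and 74.7%), and the lymphocyte bars (3.94% and 8.72%) give the background.

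P1-like cells held more Fbn1 and Mfap5, the microfibril genes, than P2-like cells in both mice. Of 9 members counted, 3 were at least 1 higher (log2) in P1-like cells in both mice, Fbn1, Mfap5 and Fbln5, against 3.71% of 3670 genes. The median over the members was 1.32 in the KO mouse and 0.61 in the WT mouse, against -0.19 and -0.08 over all genes counted. Fbn1 stayed past 1 in both mice under all 10 alternatives run, while Mfap5 stayed past it in 7 of 10 in the WT mouse (lowest 0.56) and Fbln5 in 9 of 10 in each mouse (lowest 0.91 and 0.81). The median in the WT mouse was 0.26 without integration. Subtypes were named from markers of the same cells, so these differences are descriptions.

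Fbn1 read 5028 CPM (4731 to 5339) in P1-like and 1442 CPM (1346 to 1543) in P2-like cells of Bbs8 KO, and 3924 CPM (3506 to 4378) and 1453 CPM (1295 to 1624) in those of Bbs8 WT. It was higher in the P1-like cells of 10 of 10 sets. Mfap5, whose protein MAGP-2 binds fibrillin along the microfibril, was higher in P1-like than in P2-like cells by 2.11 (1.90 to 2.34) in the KO mouse and 1.05 (0.68 to 1.43) in the WT mouse, again in 10 of 10 sets. For Fbln5 the difference was 1.26 (0.69 to 1.91) in the KO mouse and 1.03 (0.36 to 1.72) in the WT mouse, in 9 of 10 sets. Efemp1, which encodes fibulin-3, was above P2-like in the P1-like cells of 10 of 10 sets. Its difference of 1.32 (1.09 to 1.57) in the KO mouse and 0.28 (-0.08 to 0.64) in the WT mouse passed 1 in only 1 mouse, and the interval in the WT mouse held 0. Emilin1 lay on the other side of 0, with -0.56 (-1.65 to 0.33) in the KO mouse and -1.29 (-2.73 to -0.19) in the WT mouse.

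P3-like cells were marked by a different pair. Fbln1, whose protein fibulin-1 lies in elastic fibres and basement membranes, was higher in P3-like than in P2-like cells by 3.42 (2.93 to 4.10) in the KO mouse and 2.07 (1.37 to 2.81) in the WT mouse, in 10 of 10 sets. Ltbp4 was higher by 2.25 (1.74 to 2.84) in the KO mouse and 1.85 (1.13 to 2.61) in the WT mouse, also in 10 of 10 sets. They were the 2 of 9 members that passed 1 in both mice (2.96% of 3107 genes). Eln and Fbln2 passed it in Bbs8 KO only, with differences of 2.42 in the KO mouse and 0.51 in the WT mouse for Eln and 1.48 in the KO mouse and -0.42 in the WT mouse for Fbln2.

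Set against each other, P1-like and P3-like cells divided the family. Fbn1 (1.77 in the KO mouse and 2.27 in the WT mouse), Mfap5 (2.04 in the KO mouse and 1.81 in the WT mouse) and Efemp1 (1.59 in the KO mouse and 1.80 in the WT mouse) were higher in P1-like cells, 3 of 8 members against 7.17% of 1130 genes. Fbln1 (-1.31 in the KO mouse and -1.35 in the WT mouse) and Ltbp4 (-1.45 in the KO mouse and -1.32 in the WT mouse) were lower, 2 of 8 against 4.16%. Each of these 5 genes had the same order in all 10 sets. The microfibril genes Fbn1 and Mfap5 and the fibulin Efemp1 were highest in P1-like cells of both mice, and Fbln1 and Ltbp4 in P3-like cells of both mice. For Efemp1 in the WT mouse the interval of P1-like over P2-like cells held 0. Eln, Fbln2 and Fbln5 had no order that held at this size in both mice between P1-like and P3-like cells.

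The main comparison of the study is that of the genotypes. In all stromal cells, 3 of 9 members counted were lower in Bbs8 KO by at least 0.5 (log2), Fbln2, Fbln5 and Emilin1, against 12.8% of 4036 genes, and 0 were higher, against 21.1%. The median over the members was -0.45 and that over all genes counted 0.05. In 2 members, Fbln2 and Emilin1, every Bbs8 KO set lay below every Bbs8 WT set (2.9% of all genes counted), and in 0 every Bbs8 KO set lay above (5.08%). Values by set are given in the order KO5_p2, KO5_p3, KO6_p1, KO6_p2 and KO6_p3 for Bbs8 KO and WT3_p1, WT3_p2, WT3_p3, WT4_p2 and WT4_p3 for Bbs8 WT. Which cells were called stromal, fewer cells of a subtype and less RNA per cell all enter such a sum and cannot be told apart.

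The fibrillin and elastin core of the fibre did not move by this much. Fbn1 read 2619.8, 2745, 2204, 2185 and 2093 CPM in the Bbs8 KO sets and 2335, 1956, 1802, 1789.8 and 2194 CPM in the Bbs8 WT sets. The sets overlapped, and the log2 ratio was 0.23 (0.10 to 0.36). Eln read 341, 396, 302, 327 and 399 CPM against 382, 343, 519.8, 394 and 229.6 CPM. Its ratio was -0.02 (-0.33 to 0.30), and the Bbs8 KO sets lay inside the span of the Bbs8 WT sets. Mfap5 read 962, 953, 907, 753 and 949.9 CPM against 696, 807, 728, 781 and 854 CPM, a ratio of 0.19 (-0.01 to 0.40), with all Bbs8 KO sets but KO6_p2 above all Bbs8 WT sets. For Mfap4, which encodes a microfibril-associated glycoprotein, 10 UMIs in Bbs8 KO stood against 18 in Bbs8 WT, 11.5 CPM (5.52 to 21.2) against 54.0 CPM (32.0 to 85.4), with a log2 ratio of counts between -3.51 and -1.04, and 1 Bbs8 KO and 1 Bbs8 WT set were at 0.

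Of the genes whose proteins link elastin and microfibrils, Fbln2, Fbln5 and Emilin1 were lower by at least 0.5. Fbln2, which encodes fibulin-2, a binder of fibrillin-1 and tropoelastin, read 550.4, 557, 384, 411 and 486 CPM in the Bbs8 KO sets and 898, 1049, 1039.6, 887 and 752 CPM in the Bbs8 WT sets. The highest Bbs8 KO set lay below the lowest Bbs8 WT set, and the ratio was -0.92 (-1.15 to -0.71). Emilin1, which encodes a glycoprotein at the interface of elastin and microfibrils, read 105, 83.9, 58.2, 68.4 and 64.2 CPM against 179.7, 141, 277, 121 and 242 CPM. These sets did not overlap either, on 64 and 58 UMIs, and the ratio was -1.19 (-1.78 to -0.70). Fbln5 read 195, 129.6, 93.1, 97.7 and 119 CPM against 179.7, 343, 485, 212 and 242 CPM, with a ratio of -1.04 (-1.49 to -0.64), and set KO5_p2 overlapped set WT3_p1. Summed by the number in the set code, Fbln2 read 553 CPM in KO5 and 431 CPM in KO6, below 992 CPM in WT3 and 837 CPM in WT4. Emilin1 read 94.7 and 63.9 CPM against 187 and 166 CPM.

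Efemp1, Fbln1 and Ltbp4 stayed within 0.5. Their ratios were -0.38 (-0.58 to -0.18) for Efemp1, -0.45 (-0.83 to -0.09) for Fbln1 and -0.47 (-0.85 to -0.10) for Ltbp4, with intervals below 0 and overlapping sets. Without set KO6_p1 the ratio of Fbln1 was -0.60. Ltbp4 passed -0.5 without KO5_p2 (-0.52), KO6_p1 (-0.50), WT3_p1 (-0.54), WT3_p2 (-0.54) or WT3_p3 (-0.50). Without KO6_p1 the count of members lower in Bbs8 KO was 5 in place of 3. Other genes moved with the genotype in the same cells: the 8 pan-stromal markers summed to 65951 CPM (60344 to 71405 over sets) in Bbs8 KO and 83421 CPM (76672 to 95596 over sets) in Bbs8 WT, the 8 B cell markers to 1249.5 CPM (984 to 1393 over sets) and 303 CPM (104 to 387 over sets), and the 8 macrophage markers to 747 CPM (448 to 1106 over sets) and 225 CPM (34.7 to 363 over sets). Higher sums in Bbs8 KO were also those of the T cell markers (711 CPM (543 to 870.0 over sets) and 165 CPM (0 to 204 over sets)) and the endothelial markers (354 CPM (237 to 463 over sets) and 84.0 CPM (12.8 to 141 over sets)). The P2 markers summed to 5798 CPM (5031 to 6642 over sets) in the KO mouse and 8285 CPM (7411 to 9841 over sets) in the WT mouse, and the P3 markers to 1671 CPM (1404 to 2123 over sets) and 2836 CPM (2561 to 3985 over sets). Relative to the summed pan-stromal markers, a scaling chosen after the data were seen, the median over the members was -0.12 and Fbln2 (-0.59), Fbln5 (-0.71) and Emilin1 (-0.86) were still lower by more than 0.5, while Fbn1 (0.56) and Mfap5 (0.53) were higher by as much, against 4.16% of all genes lower and 40.1% higher. This scaling, whose denominator holds matrix genes itself, moved the median of all genes by 0.32. The size factors of DESeq2 and the TMM factors of edgeR moved it by -0.19 and -0.18, and with either 6 of 9 members were lower, against 22.9% and 22.1% of all genes, while 13.9% and 14.2% of all genes and none of the members were higher.

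**Figure D3:**
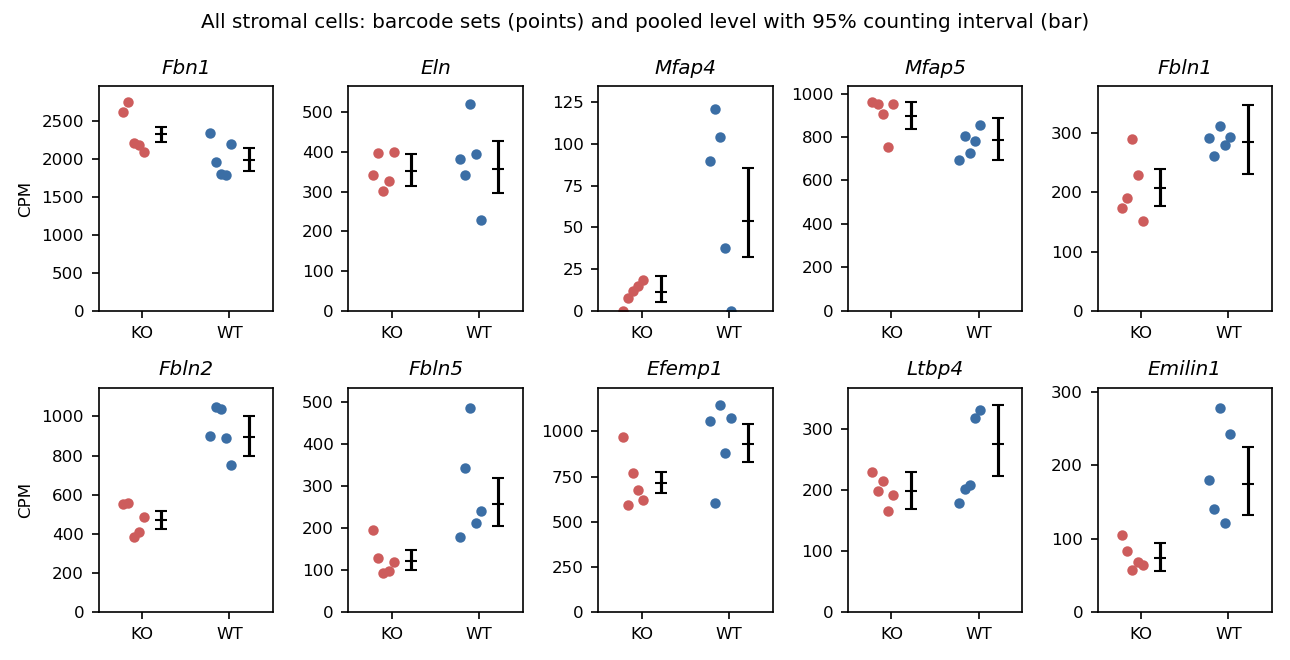
CPM of each gene in all stromal cells; points are the 5 barcode sets of each genotype and the bar is the pooled level with its 95% Poisson interval. The Bbs8 KO and Bbs8 WT points of Fbln2 and Emilin1 do not overlap, and those of the other genes do.

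By subtype the genotypes differed in both directions. In P1-like cells, 2 of 8 members counted were lower in Bbs8 KO (18.8% of 733 genes) and 2 were higher (15.7%), and the median over the members was 0.18, against -0.03 over all genes. It turned to -0.14 with classes from marker UMIs per cell and to -0.05 with no UMI minimum. Mfap5 read 1800.1, 2365, 1892, 1883 and 2829.8 CPM in the Bbs8 KO sets and 1071, 1359, 1354, 1259 and 1722 CPM in the Bbs8 WT sets. Every Bbs8 KO set lay above every Bbs8 WT set (1 of 8 members, against 3.14% of all genes), and the ratio was 0.67 (0.37 to 0.98). Eln read 730.5, 814, 479, 683 and 689 CPM against 446, 339.8, 451, 419.5 and 676 CPM, a ratio of 0.53 (0.01 to 1.09) that fell below 0.5 in 8 of the alternatives run, among them without KO5_p3 (0.46), WT3_p2 (0.47) or WT4_p2 (0.41).

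Fbn1 in P1-like cells read 5374, 5061, 4459, 5234 and 5069 CPM against 4374, 4503, 4513, 3251 and 4612 CPM. The ratio of 0.36 (0.18 to 0.54) stayed within 0.5, and only KO6_p1 reached into the span of the Bbs8 WT sets. Fbln2 (-0.71, -1.12 to -0.30) and Fbln5 (-1.0, -1.68 to -0.34) were lower in P1-like cells too, with overlapping sets: Fbln2 spanned 457 to 910.5 CPM in Bbs8 KO and 226 to 1428 CPM in Bbs8 WT, where the lowest set held 1 UMI of it. Efemp1 (0.19, -0.15 to 0.54) and Fbln1 (0.17, -0.50 to 0.89) were not told apart from 0 at this depth. Ltbp4 had a ratio of -0.28 (-1.03 to 0.50), which was 0.51 without set WT4_p2. Pan-stromal markers summed in these cells to 74673 CPM in the KO mouse and 75167 CPM in the WT mouse, P1 markers to 7234 and 7163 CPM, and B cell markers to 851 and 257 CPM. T cell (447 and 159 CPM), macrophage (268 and 97.8 CPM) and endothelial markers (174 and 36.7 CPM) were higher in the KO mouse too. P2 markers (1778 and 2579 CPM) and P3 markers (823 and 1455 CPM) were lower, and the part of these sums was not tested.

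In P2-like cells 7 of 9 members counted were lower in Bbs8 KO (17.0% of 2725 genes) and 0 were higher (22.6%). The median over the members was -0.84, against 0.04 over all genes. Fbln2 read 519, 481, 306, 259 and 279 CPM in the Bbs8 KO sets and 826, 1075, 1152, 913 and 672 CPM in the Bbs8 WT sets, a ratio of -1.34 (-1.64 to -1.05). Emilin1 read 132, 74.1, 62.9, 96.4 and 69.7 CPM against 179.5, 163, 351, 175 and 279.9 CPM, a ratio of -1.29 (-1.95 to -0.73). In these 2 members all Bbs8 KO sets lay below all Bbs8 WT sets (3.3% of all genes). The 10 P2 markers summed to 7331 CPM (6241 to 8712 over sets) in the KO mouse and 10899 CPM (9767 to 12273 over sets) in the WT mouse, and the 10 P3 markers to 1111 CPM (914 to 1497 over sets) and 2231 CPM (1903 to 3156 over sets), and their part was not tested.

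Efemp1 read 753, 444, 584, 400.3 and 501 CPM in the Bbs8 KO sets and 1113, 521, 1302, 901 and 1064 CPM in the Bbs8 WT sets, with a ratio of -0.84 (-1.11 to -0.59), and only WT3_p2 reached into the Bbs8 KO span. Eln read 214, 136, 171, 111 and 196 CPM against 395, 358, 551, 350.2 and 56.0 CPM, with a ratio of -0.84 (-1.33 to -0.38). All Bbs8 WT sets of Eln but WT4_p3 lay above all Bbs8 KO sets. Fbln1 (-1.23, -1.94 to -0.63) and Fbln5 (-1.23, -1.89 to -0.66) were lower with overlapping sets. Ltbp4 had a ratio of -0.55 (-1.14 to 0.02), whose interval held 0, and before rounding it no longer passed 0.5 without KO6_p1 (-0.50), KO6_p2 (-0.34), WT4_p2 (-0.46) or WT4_p3 (-0.47). Fbn1 was near 0: it read 1639, 1654, 1447, 1305 and 1324 CPM against 1975, 1271, 1503, 1213 and 1623 CPM, a ratio of -0.01 (-0.20 to 0.18), and Mfap5 had a ratio of -0.39 (-0.69 to -0.09). Mfap4 had 6 UMIs (10.3 CPM) in the KO mouse and 15 (70.7 CPM) in the WT mouse, too few to be counted.

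The P2-like class joined a shallow and a deep cluster, and the members' values differed between them. The shallow cluster, led by Car3, Peg3 and Fgf10, had medians of 248 UMIs per Bbs8 KO and 282 per Bbs8 WT cell, and the deep cluster, led by Adam12, Sdc1 and Postn, 472 and 431. The paper also names a class of fibroblastic progenitor cells, with a matrix remodelling signature and more abundant in Bbs8-/-. No marker list for that class was used here, and whether such cells lie in either P2-like cluster was not tested. In the shallow cluster 6 of 8 members counted were lower in Bbs8 KO (25.4% of 1349 genes), with a median of -1.14. Within the deep cluster 2 of 6 were lower, Eln and Fbln2 (17.3% of 978 genes), 1 was higher, Fbn1 (20.9%), and the median was -0.35. Over all 9 members counted in P2-like cells the deep cluster had a median of -0.81 with 5 lower, since Fbln1 (-0.81, -2.05 to 0.42), Fbln5 (-0.86, -1.99 to 0.26) and Emilin1 (-1.36, -2.28 to -0.50) had fewer than 50 UMIs in it. Fbln2 was lower in both, by ratios of -1.67 (-2.08 to -1.29) and -0.92 (-1.39 to -0.46), with sets apart in each. Efemp1 had sets apart in the shallow cluster too, with a ratio of -1.21 (-1.57 to -0.86). The share of all genes with sets apart is not given for the single clusters, so these separations have no background beside them. Fbn1 had ratios of -0.37 (-0.61 to -0.13) in the shallow and 0.56 (0.23 to 0.91) in the deep cluster, which lie on different sides of 0, and Ltbp4 of -1.07 (-1.87 to -0.33) and 0.13 (-0.81 to 1.19).

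Markers moved with the genotype in the shallow cluster as well. Its pan-stromal markers summed to 43286 CPM (36954 to 53961 over sets) in Bbs8 KO and 83379 CPM (70331 to 92749 over sets) in Bbs8 WT, and those of the deep cluster to 80957 CPM (74237 to 88442 over sets) and 87252 CPM (75053 to 100547 over sets). The 8 B cell markers summed to 2091 CPM (1661 to 2299 over sets) against 339 CPM (0 to 495 over sets) in the shallow and to 629.7 CPM (449 to 794 over sets) against 252 CPM (0 to 630.0 over sets) in the deep cluster, the 8 T cell markers to 1237 CPM (958 to 1364 over sets) against 234 CPM (0 to 346 over sets) and 325 CPM (165 to 477 over sets) against 101 CPM (0 to 504 over sets). The macrophage markers summed to 1317 CPM (639 to 1618 over sets) against 377 CPM (0 to 742 over sets) in the shallow and to 491 CPM (378 to 621 over sets) against 88.3 CPM (0 to 161 over sets) in the deep cluster. Endothelial markers summed to 654 CPM (394 to 734 over sets) against 151 CPM (0 to 297 over sets) and to 147 CPM (77.8 to 202 over sets) against 12.6 CPM (0 to 25.3 over sets), and in the deep cluster the sets of both lists did not overlap. Of the 8 T cell markers 8 had a UMI in the shallow cluster of the KO mouse and 7 in that of the WT mouse, and in the deep cluster 8 and 3. Of the 8 B cell markers it was 8 and 7 in the shallow and 7 and 4 in the deep cluster. Relative to the pan-stromal markers, the P2-like median over the members was -0.35 and 4 of 9 members were lower by 0.5, Fbln1, Fbln2, Fbln5 and Emilin1, against 3.96% of all genes lower and 50.8% higher. This scaling moved the median of all genes by 0.47. What part these transcripts have in the P2-like difference was not tested beyond this.

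**Figure D4:**
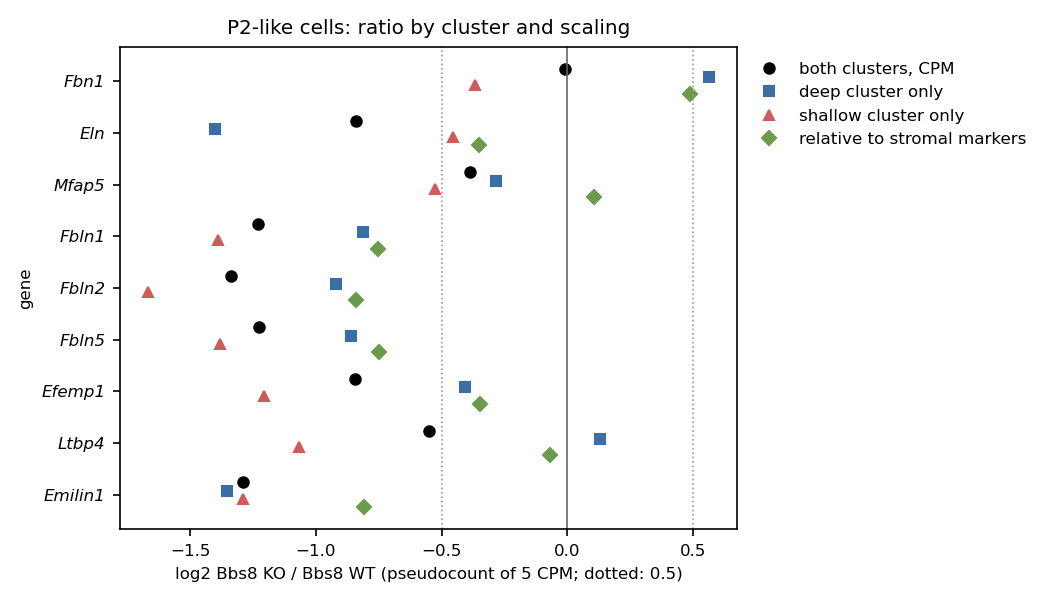
Log2 ratio of Bbs8 KO over Bbs8 WT of the 9 members counted in P2-like cells, with both clusters (circles), the deep cluster (squares), the shallow cluster (triangles), or scaled to the summed pan-stromal markers (diamonds), whether or not a gene reached 50 UMIs in a cluster. Fbln1, Fbln2, Fbln5 and Emilin1 lie left of -0.5 in all 4, and Fbn1, Mfap5 and Ltbp4 lie on both sides of 0.

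In P3-like cells 0 of 6 members counted were lower in Bbs8 KO (19.0% of 221 genes) and 3 were higher (19.0%), with a median of 0.50 against -0.05 over all genes. The median turned to -0.21 for the sets of KO5 against those of WT4 and to -0.14 with classes from marker UMIs per cell. T cell markers summed to 518 CPM (204 to 702 over sets) in these cells of the KO mouse and 76.1 CPM (0 to 218 over sets) of the WT mouse, and B cell markers to 872 CPM (369 to 1181 over sets) and 381 CPM (0 to 1051 over sets), and their part was not tested. Counts were small here: the sets held 14 to 44 Bbs8 KO and 12 to 28 Bbs8 WT cells. Fbn1 read 1291, 2491, 883, 842 and 2105 CPM against 0, 702, 448, 1089 and 1168 CPM, a ratio of 0.85 (0.28 to 1.47). Eln read 0, 830.3, 747, 889 and 1437 CPM against 183, 281, 448, 581 and 467 CPM, a ratio of 1.07 (0.30 to 1.94), with 4 of 5 Bbs8 KO sets above all Bbs8 WT sets and KO5_p2 at 0. Fbln2 had a ratio of 0.57 (-0.09 to 1.28) that rested on single sets, since it fell below 0.5 without KO5_p3 (0.46), KO6_p3 (0.40), WT3_p1 (0.41) or WT4_p2 (0.19). Mfap5, at 0.44 (-0.45 to 1.41), passed 0.5 without KO5_p3 (0.51), KO6_p1 (0.60), WT3_p1 (0.54), WT4_p2 (0.72) or WT4_p3 (0.53). Fbln1 and Ltbp4, which passed 1 in P3-like over P2-like cells in both mice, had ratios of 0.12 (-0.52 to 0.80) and -0.15 (-0.86 to 0.58), neither told apart from 0.

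Read across the subtypes, Fbn1 had ratios of 0.36 in P1-like, -0.01 in P2-like and 0.85 in P3-like cells, and Eln of 0.53, -0.84 and 1.07. Fbln2 had ratios of -0.71, -1.34 and 0.57. Whether the genotype difference itself differs between subtypes was not tested, since there was 1 mouse per genotype. Among members counted in both subtypes, counting intervals of P1-like and P2-like cells did not overlap for Eln, Mfap5, Fbln1 and Efemp1, those of P2-like and P3-like cells for Fbn1, Eln, Fbln1 and Fbln2, and those of P1-like and P3-like cells for Fbln2.

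**Figure D5:**
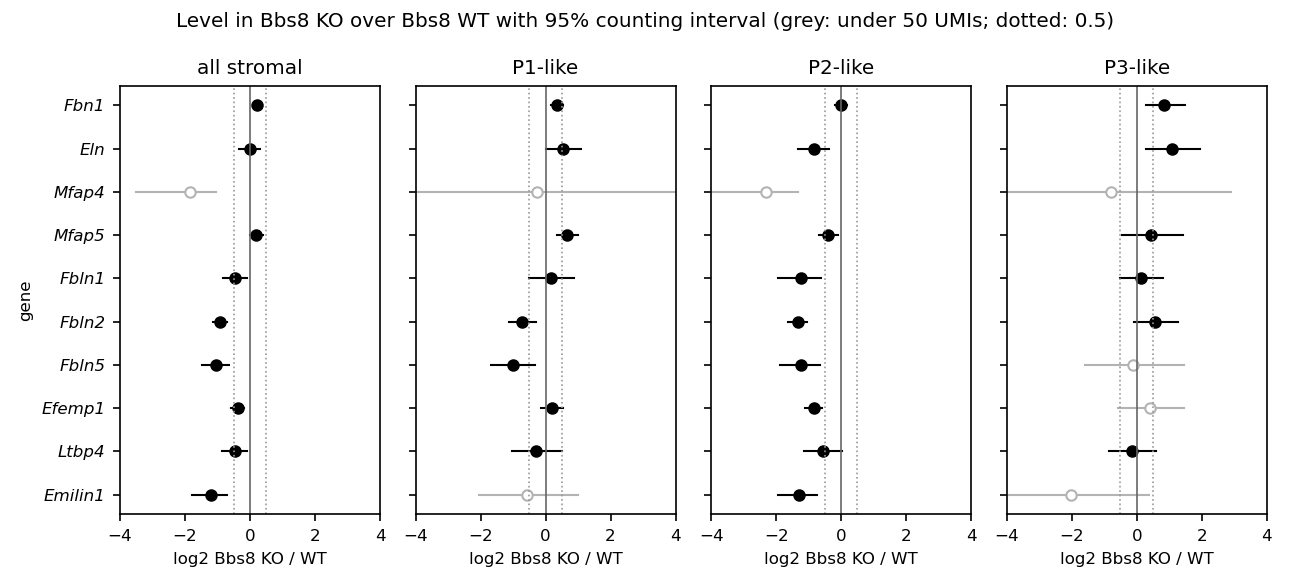
Log2 ratio of Bbs8 KO over Bbs8 WT (pseudocount of 5 CPM) for each gene, in a panel each for all stromal cells and the 3 subtypes, with 95% intervals for counting error cut at -4 and 4; grey marks fewer than 50 UMIs over both mice and dotted lines mark 0.5 in either direction. By CPM, all counted members lie left of 0 in P2-like cells, Fbn1 at -0.01, and Mfap5 lies right of 0.5 in P1-like cells.

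Other genes of the elastic fibre pathway, from lists of chosen genes, are set beside the members for all stromal cells. Of 15 other fibrillins, fibulins and microfibril proteins, 14 were in the table and 10 were counted, of which 3 were lower and 1 higher in Bbs8 KO, with a median of -0.37. Over all genes counted in these cells the shares were 12.8% lower and 21.1% higher, with a median of 0.05, which holds as the background of all the lists here. Those lower were Fbln7 (-1.66, -2.60 to -1.04), the hemicentin gene Hmcn1 (-0.58, -1.32 to 0.09) and Tnxb (-0.57, -0.92 to -0.24), which encodes tenascin-X. Efemp2, whose protein fibulin-4 brings lysyl oxidase to tropoelastin, was higher (0.52, 0.07 to 1.03). Of 4 of 5 lysyl oxidases counted, which crosslink elastin and collagen, 0 were lower and 1 was higher, Loxl3 (0.63, -0.10 to 1.54).

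Among the ADAMTS and ADAMTSL proteins of microfibrils 2 of 6 genes were counted, and Adamts10, a protease that binds fibrillin-1, was higher in Bbs8 KO (1.46, 0.58 to 2.91), with 74.8 against 24.0 CPM and all Bbs8 KO sets above all Bbs8 WT sets. None of the 3 TGF-beta ligands reached 50 UMIs. The most counted were Tgfb2 with 32 and 12 UMIs and Tgfb3 with 12 and 8 UMIs in Bbs8 KO and Bbs8 WT. Of 4 integrin genes counted, 0 were lower and 1 was higher, Itgav (0.53, -0.21 to 1.44), whose interval held 0. Of 5 elastin-degrading proteases counted, Mmp2 (-0.69, -0.83 to -0.55) and Ctsk (-0.77, -1.03 to -0.52) were lower and Ctss (1.03, 0.55 to 1.61), which macrophages also express, was higher, each with sets that did not overlap. In P2-like cells 4 of 10 of the other fibrillins, fibulins and microfibril proteins were lower, Fbln7, Mfap2, Ltbp1 and Tnxb, and 0 were higher, against 17.0% and 22.6% of all genes, and in P1-like cells 1 of 6 was lower, Vcan, against 18.8%.

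The patterns of the members over cell classes were compared with those of 3659 genes with at least 200 UMIs, over 24 profiles (12 named classes in each mouse), by Pearson correlation of log2(CPM + 5). Profiles share libraries and cell depth, so r is a description. Fbn1 was most like Efemp1 (r = 0.95), a member itself, then Cpxm1 (r = 0.94) and Serpinh1 (r = 0.92). Mfap5 was most like Col14a1 (r = 0.94), Egfr (r = 0.92) and Cpxm1 (r = 0.90), and Efemp1, after Fbn1, was most like Cpxm1 (r = 0.94) and Pcolce2 (r = 0.93). Fbln2 was closest to Tnxb (r = 0.91), Serpinh1 (r = 0.91) and Ltbp4 (r = 0.90), and Ltbp4 to Phldb1 (r = 0.93), Fbln2 and Itih5 (r = 0.89).

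The remaining members had neighbours of their own. Eln was closest to Lamb2 (r = 0.90), C1s1 (r = 0.89) and Tcaf1 (r = 0.89). Fbln1 was closest to Sfrp4 (r = 0.93), Abi3bp (r = 0.92) and Ndn (r = 0.91). Fbln5 had the weakest neighbours, Akap12 (r = 0.84), Cavin1 (r = 0.81) and Grb10 (r = 0.78), and among the members the lowest correlation was that of Fbln5 and Mfap5 (r = 0.30). Mfap4 and Emilin1 had fewer than 200 UMIs and were not compared.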

How the data were processed

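The SVF of iWAT was analysed from 1 table of UMI counts per gene and cell (Seq-Well S3). Per the labels and the study's methods, the authors demultiplexed reads with bcl2fastq 2.20, mapped them to mm10 with dropSeqPipe (Drop-seq tools and STAR), counted UMIs with GENCODE M16 and kept cells with 100 to 1000 genes and at most 20% mitochondrial UMIs. Downsampling of reads between batches is also named, and whether the deposited counts precede it is not given in the sources used here. The sets held 538160 to 701136 UMIs in the KO mouse and 68989 to 303732 in the WT mouse, so that values of Bbs8 WT sets are less precise.

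Cells were clustered with Seurat 5.3.0 (R 4.3.3): anchor integration, 2000 variable features without the 10 genes, 30 dimensions and resolution 0.8. Clusters were named from marker lists, and the step that joined 2 clusters as P2-like was added after the clusters had been seen. Doublets were kept. Scrublet (scanpy 1.11.5) called 0.229% of cells, which at this depth does not show that doublets were few, and an alternative left out the 6% of cells with the highest scores. UMIs were summed by genotype and class, as CPM, with exact Poisson, Clopper-Pearson and conditional 95% intervals. A gene was counted with 50 or more UMIs in the compared classes of both mice, and called at a log2 ratio (pseudocount of 5 CPM) of 0.5 between genotypes, 1 between subtypes and 2 between stromal and other cells. Ratios and intervals were tested on simulated data. Members and lists were chosen with earlier results of these data known. All members were named, with pathway genes past the fold and, where none was counted, those with most UMIs, and the 3 genes most like each member. Coordinates were read from GENCODE M21 on GRCm38. Alternatives included DESeq2 1.42.0 and edgeR 4.0.16 scaling, other classes, and leaving out sets.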

Additional observations from a re-analysis of the deposited data

Results flagged for a closer look

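Among 64 groups of 5 barcode sets checked for a set far from the others, 5 held such a set, and chance gives about 1 in 20. Each is a value of a part of a mouse and not of an animal. Mfap5 in all stromal cells of Bbs8 KO was 753 CPM in set KO6_p2, below 907 to 962 CPM in the other sets, and it is the set that overlapped Bbs8 WT. Fbln1 in P1-like cells of Bbs8 KO was 476 CPM in KO6_p2, above 295 to 313 CPM in the others. Fbln5 in P1-like cells of Bbs8 KO was 391 CPM in KO5_p2, above 124 to 197 CPM in the others. Fbn1 in P1-like cells of Bbs8 WT was 3251 CPM in WT4_p2, below 4374 to 4612 CPM in the others. Fbln1 in P3-like cells of Bbs8 KO was 1901 CPM in KO6_p1, above 513 to 702 CPM in the others. In no member did all Bbs8 KO sets lie below all Bbs8 WT sets in 1 stromal subtype and above them in another.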

How the results depend on the processing

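With 1 mouse per genotype, the values describe these libraries, and few cells limited P3-like values and few UMIs those of Mfap4. Fbln2 and Emilin1 in all stromal and in P2-like cells, and Mfap5 in P1-like cells, stayed past 0.5 in the same direction under all alternatives run for them. In all stromal cells the number of members lower in Bbs8 KO was 3, and it was 6 with DESeq2 size factors, with TMM factors, with classes from marker UMIs per cell and after thinning. It was 3 to 5 when sets were left out in turn, and 3, 4 and 6 in the sets coded p1, p2 and p3, each on its own (a split chosen after seeing the data). The median over the members there was -0.12 relative to the summed stromal markers (a scaling chosen after seeing the data) and -0.87 after thinning. In P2-like cells the median was -0.35 relative to those markers and -0.37 for KO5 against WT4, with 4 members lower in each. In P3-like cells the median turned to -0.21 for KO5 against WT4 and to -0.14 with classes from marker UMIs, and was 1.53 in the sets coded p1. The stromal over lymphocyte-like median was 4.55 in Bbs8 KO with the members left in the features, 3.97 at resolution 1.2, 4.41 without integration, 3.78 with classes from marker UMIs, 4.26 in cells with 200 or more genes and 3.86 after thinning. In Bbs8 WT it was 5.87, 4.94, 5.53 and 2.93 for the last 4 of these. Of single members, Ltbp4 in P2-like cells turned to 0.38 for KO5 against WT3, 0.055 at resolution 1.2 and 0.13 in the deep cluster. Eln in P3-like cells was -0.088 for KO5 against WT4, and Fbln2 there was -0.09 for KO6 against WT3 and -0.66 with classes from marker UMIs. Fbln1 in P2-like cells was 0.0021 in the sets coded p1, and Fbn1 in P3-like cells -0.0073 in those coded p2. The causes were not tested. Calls of 0.5 or more were lost in 15 alternatives for Ltbp4 in P2-like cells, 11 for Fbln2 in P3-like, 8 for Eln in P1-like, 4 for Eln in P2-like and for Fbln2 in P1-like, 3 for Fbn1 in P3-like, 2 for Efemp1 and Fbln1 in P2-like, Eln in P3-like and Fbln5 in P1-like cells, and 1 for Fbln5 in P2-like and in all stromal cells. No test was run, so no pairing of sets entered one. Some of the values within sets of the same p code are given above.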

Other observations

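With both mice pooled, cells of the 2 unnamed clusters held 5.88% (Mfap4) to 14.5% (Mfap5) of each member's UMIs. The mice differed: for Mfap5 it was 186 of 1078 UMIs in Bbs8 KO and 14 of 303 in Bbs8 WT, and for Mfap4 2 of 14 and 0 of 20. Fbn1 read 742 CPM (669 to 820) in the unnamed cells of the KO mouse and 465 CPM (311 to 667) in those of the WT mouse, and Fbln2 read 193 CPM (157 to 235) and 417 CPM (272 to 610). Pan-stromal markers in the same cells summed to 24304 CPM in the KO mouse and 33438 CPM in the WT mouse, below their level in stromal cells.

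In pericyte-like cells Fbln2 read 226 CPM (154 to 319) in the KO mouse and 675 CPM (418 to 1032) in the WT mouse, on 32 and 21 UMIs. Macrophage-like cells had 71 Fbn1 UMIs in the KO mouse (267 CPM, 209 to 337) and 4 in the WT mouse (74.1 CPM, 20.2 to 190). This class joined 2 clusters in different shares, one with 363 KO and 30 WT cells and one with 269 and 104, and the part of that mix was not tested. After thinning to 200 UMIs, 12.6% and 11.2% of macrophage-like cells held a member, above the lymphocyte-like share in the KO mouse and with an interval that overlapped it in the WT mouse.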
